A study of Rattus norvegicus with 14 samples.

Results

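The Hox genes of the 4 Hox clusters were followed in whole rat epididymis at 4 postnatal ages. A gene was included when its single symbol in the array annotation was Hoxa, Hoxb, Hoxc or Hoxd followed by a number (the rule itself uses no measured value). This gave 31 of the 18166 genes tested, 8 from cluster a, 10 from cluster b, 7 from cluster c and 6 from cluster d, out of 39 Hox genes named in RefSeq. The other 8 were not analysed here, as no transcript cluster carried their symbol alone. Each of the 31 was read by 1 transcript cluster, the set of probes that stands for a gene on the array. Genes of a Hox cluster lie close together and some of their transcripts overlap, so a neighbour's transcript may add to a signal, which was not tested.

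Hox proteins are homeodomain transcription factors that give cells their position along the head-to-tail axis. Their genes stand in each cluster in paralog order, from the anterior paralog 1 to the posterior paralog 13, and genes with the same number in different clusters descend from 1 ancestral gene and act partly in place of each other. The epididymis forms from the anterior part of the Wolffian duct, and in mice the loss of Hoxa10 or Hoxa11 shifts the vas deferens, which forms from the next stretch of the duct, towards an epididymal form. Meis, Pbx and Pknox proteins of the TALE homeodomain class bind DNA together with Hox proteins, Polycomb complexes keep Hox genes silent, and Trithorax complexes keep them active.

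RNA came from pools of frozen whole epididymides of Sprague-Dawley rats aged 7 days (3 pools), 18 days (4 pools), 28 days (4 pools) and 60 days (3 pools), with no treatment. Rats of 7 and 18 days were housed with their mothers, and those of 28 and 60 days were fed freely. The labels do not say how many animals made up a pool or whether pools of an age shared animals, so p-values measure the spread between pools only. Each pool was hybridised to 1 RatGene 2.0 ST array, and values are log2 signals, on which a difference of 1 is 2-fold. Levels of different genes are not compared, because each transcript cluster has its own probes.

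Array medians ran from 5.21 to 5.42, and pools of an age correlated at 0.989 to 0.995 across genes. The level of 4.92, the 95th percentile of 1344 olfactory and vomeronasal receptor genes, is used as the background. Of 8 measured markers of the epididymal secretory epithelium, 6 lay under it at day 7 and 0 did at day 60, so the labelled tissue showed its defining secretory genes at the later ages. Of the 13 general epithelial markers, 0 lay under it at any age. Replicate 2 of day 28 gave the lowest of the 4 day 28 values for 11 of the 23 Hox genes that were above background at every age.

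Promoters were matched by symbol in RefSeq (build GRCr8, 250 bases before to 50 after the start). Entries were found for 15 of the 31 genes, with 16 promoters in all and Hoxb1 alone from cluster b. The 4 shown belong to Hoxa6, Hoxa10 and Hoxd10, which had the largest falls after day 7 among genes with an entry, and to Hoxa2, which had the largest rise to day 60. Capitals mark CpG dinucleotides. They lie at chr4:82639414-82639713 (Hoxa6, minus strand), chr4:82671441-82671740 (Hoxa10, minus strand, 1 of 2 entries), chr3:80001697-80001996 (Hoxd10, plus strand) and chr4:82595643-82595942 (Hoxa2, minus strand).
Hoxa6: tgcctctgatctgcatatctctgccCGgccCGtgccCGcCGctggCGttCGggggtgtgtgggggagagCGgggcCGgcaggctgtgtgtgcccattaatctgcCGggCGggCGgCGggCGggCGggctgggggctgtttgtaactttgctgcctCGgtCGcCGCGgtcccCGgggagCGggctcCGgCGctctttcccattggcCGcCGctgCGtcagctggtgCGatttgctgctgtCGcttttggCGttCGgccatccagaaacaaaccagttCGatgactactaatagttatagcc
Hoxa10: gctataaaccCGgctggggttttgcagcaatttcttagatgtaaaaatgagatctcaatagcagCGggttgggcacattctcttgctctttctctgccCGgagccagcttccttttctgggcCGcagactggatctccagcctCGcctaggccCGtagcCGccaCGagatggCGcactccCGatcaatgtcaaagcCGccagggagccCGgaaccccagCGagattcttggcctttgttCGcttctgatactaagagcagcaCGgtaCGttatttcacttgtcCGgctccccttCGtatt
Hoxd10: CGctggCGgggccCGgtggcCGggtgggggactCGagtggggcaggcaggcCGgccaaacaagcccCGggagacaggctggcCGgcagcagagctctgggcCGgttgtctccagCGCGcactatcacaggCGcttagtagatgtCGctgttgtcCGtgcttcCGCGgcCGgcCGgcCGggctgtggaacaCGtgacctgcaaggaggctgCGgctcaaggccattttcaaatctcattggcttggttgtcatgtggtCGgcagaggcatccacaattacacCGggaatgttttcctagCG
Hoxa2: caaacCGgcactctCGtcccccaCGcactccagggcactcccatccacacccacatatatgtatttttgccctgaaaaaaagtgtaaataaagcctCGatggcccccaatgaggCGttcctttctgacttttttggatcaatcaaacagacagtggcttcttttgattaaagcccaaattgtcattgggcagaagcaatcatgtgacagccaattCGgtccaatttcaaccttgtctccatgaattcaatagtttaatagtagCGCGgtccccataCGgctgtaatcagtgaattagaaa

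These promoters held 30 (Hoxa6), 18 (Hoxa10), 24 (Hoxd10) and 9 (Hoxa2) CpG dinucleotides in 300 bases. The promoter of Hoxc4, which fell by nearly as much as Hoxd10, held 6. With no entry for Hoxb4, Hoxb6, Hoxb7 or Hoxb8, a relation of the count to the direction of change was not tested. The median was 21.5 over the 16 Hox promoters and 7 over all 33469 promoters, whose quartiles were 3 and 19. Short motifs were searched on both strands. The Hox and Pbx site TGATNNAT was present in 3 of the 16, the Hoxa2 promoter included, and in 9.1% of all promoters. The nuclear receptor core site AGGTCA was present in 3 of the 16, the Hoxd10 promoter included, and in 16.2% of all. The TATA box TATAAA was present in 4 of the 16, both Hoxa10 promoters included, and in 14.2% of all. A match describes the letters of these windows and is not evidence of binding.

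The clusters also hold microRNA genes, whose mature strands are shown because miR-196 is known to act on Hox messages, Hoxb8 among them. Capitals mark the seed, bases 2 to 8 (RefSeq, GRCr8). Mir10a (chr10:81779730-81779752) and Mir196c (chr10:81727561-81727582) lie in cluster b, Mir196b (chr4:82661149-82661170, minus strand) in cluster a, Mir196a (chr7:135988900-135988921) in cluster c and Mir10b (chr3:80035886-80035907) in cluster d.
miR-196a-5p: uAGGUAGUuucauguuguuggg
miR-196b-5p: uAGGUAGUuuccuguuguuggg
miR-196c-5p: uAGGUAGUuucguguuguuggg
miR-10a-5p: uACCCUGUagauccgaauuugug
miR-10b-5p: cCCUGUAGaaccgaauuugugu
The 3 miR-196 strands share the seed AGGUAGU. The stretch CCUGUAG, the seed of the listed miR-10b strand, also lies in miR-10a but further from its start, so the seeds as listed differ.

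Of the 31 Hox genes 25 differed between the ages (limma F test, adjusted p under 0.05), where 60.4% of all genes tested did. They were 7 of 8 in cluster a, 9 of 10 in cluster b, 6 of 7 in cluster c and 3 of 6 in cluster d. The largest step came first. From day 7 to day 18 most measured genes of clusters a and c fell, 4 genes in the middle of cluster b rose, and the later steps were smaller and partly opposite. In the text, rose and fell are used for an adjusted p under 0.05 (limma's moderated test, Benjamini-Hochberg over all 18166 genes), and differences are log2 ± SE.

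**Figure D1:**
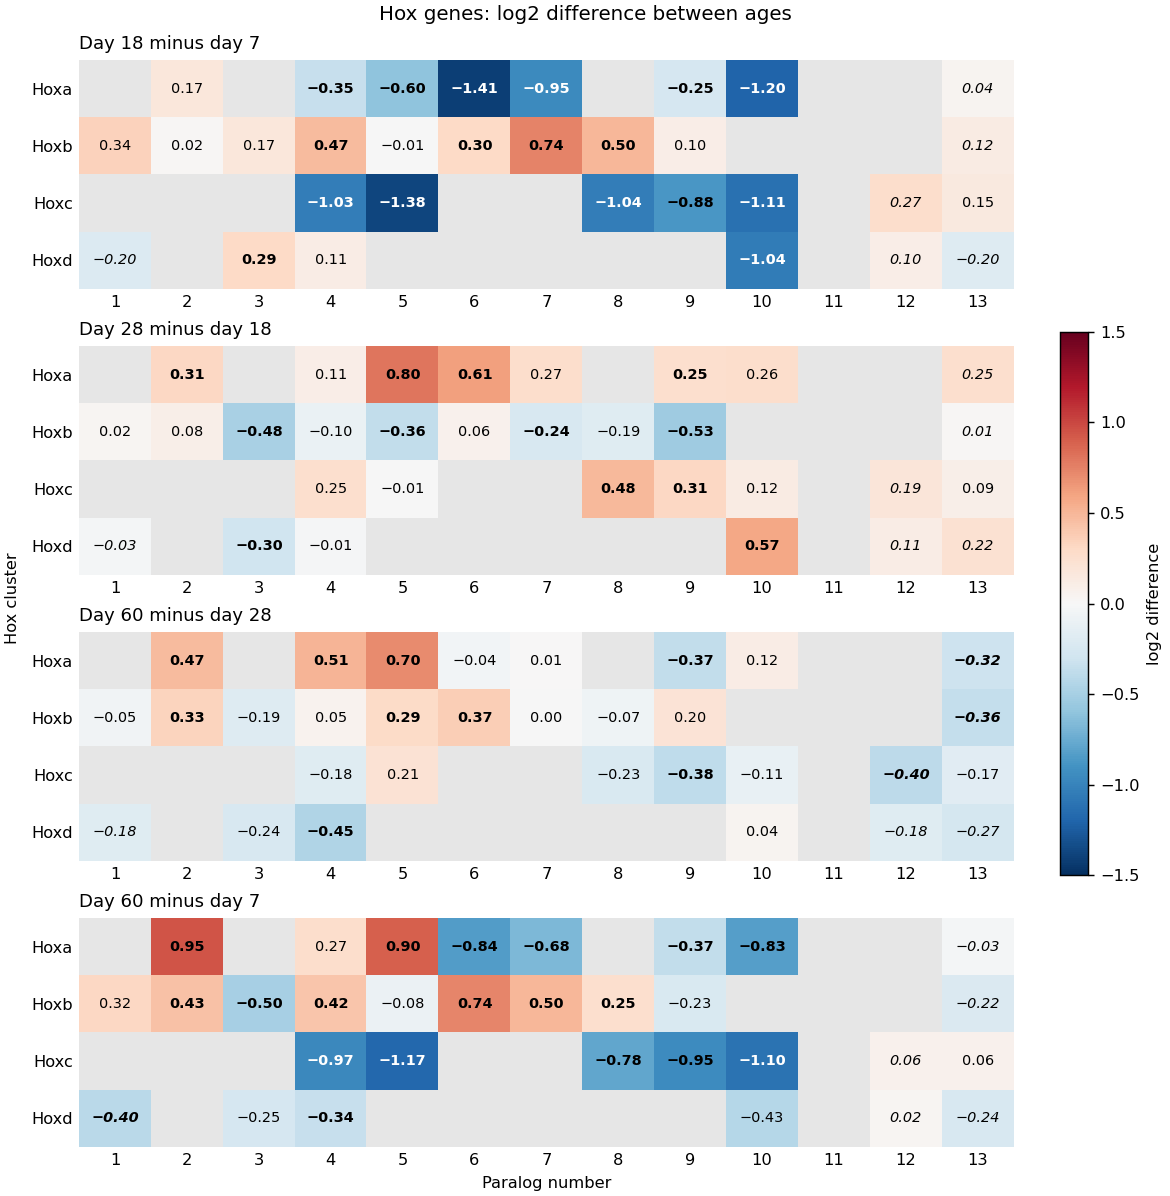
Log2 difference between ages for each measured Hox gene, with Hox clusters in rows and paralog numbers in columns (colour scale in log2 units, 1 panel per comparison). Bold values passed the adjusted p threshold of 0.05, italic values belong to the 6 genes under background at every age, and grey cells are numbers with no gene or no gene analysed; in the day 18 minus day 7 panel the bold values are 6 falls in row a, 5 falls in row c, 4 rises in row b, and 1 of each in row d.

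Between day 7 and day 18, 12 Hox genes fell and 5 rose. Over all genes tested 20.7% fell and 17.4% rose, 38.1% in either direction. The falls were 6 of 8 genes of cluster a, 5 of 7 of cluster c and Hoxd10, and the rises were 4 of 10 genes of cluster b and Hoxd3. Median differences were -0.48 in cluster a, 0.24 in cluster b, -1.03 in cluster c and -0.05 in cluster d, beside 0.01 over all genes. Pools of the ages did not overlap for 18 of the 31, and for 45.1% of all genes. In bulk tissue fewer cells of a type and less RNA per cell cannot be told apart.

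In cluster a, the fall was largest at Hoxa6, a gene of the cervical and thoracic trunk. Its day 7 pools read 9.50, 9.84 and 9.12 and its day 18 pools 8.07, 8.08, 8.08 and 8.08, a 2.66-fold fall (-1.41 ± 0.124, adjusted p = 4.04e-07). The day 18 pools were nearly equal and all lay below the lowest day 7 pool. Hoxa10, which sets regional identity in the male and female reproductive ducts, read 7.15, 7.45 and 7.40 at day 7 and 6.09, 6.32, 5.95 and 6.16 at day 18, a 2.3-fold fall (-1.20 ± 0.16, adjusted p = 2.61e-05). Its ages did not overlap.

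The other 4 genes of cluster a that fell did so by less. Hoxa7 read 8.66, 8.54 and 8.10, then 7.53, 7.44, 7.59 and 7.36 (-0.95 ± 0.126, adjusted p = 2.45e-05). Hoxa5, needed for the development of the airways and lung, read 7.98, 8.04 and 7.64, then 7.35, 7.29, 7.26 and 7.23 (-0.60 ± 0.104, adjusted p = 0.000297). In both genes every day 18 pool was lower than every day 7 pool, and replicate 3 was the lowest day 7 pool, as it was for Hoxa6. Hoxa4 fell by 0.35 ± 0.101 (adjusted p = 0.0128) and Hoxa9, a regulator of blood stem cells, by 0.25 ± 0.0807 (adjusted p = 0.0248). The Hoxa4 call was lost without replicate 2 of day 7 (adjusted p = 0.0695), and the Hoxa9 call without replicate 3 of day 7 (0.109) or replicate 3 of day 18 (0.0689). At the anterior end Hoxa2, which patterns the hindbrain and the second pharyngeal arch, differed by 0.17 and did not pass the test.

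In cluster c, the 5 measured genes from paralog 4 to paralog 10 fell. Hoxc4 read 7.40, 7.72 and 7.46 at day 7 and 6.31, 6.58, 6.48 and 6.60 at day 18, a 2.05-fold fall (-1.03 ± 0.123, adjusted p = 8.95e-06). Hoxc8, which patterns the lower thorax and brachial motor neurons, read 10.59, 10.88 and 10.14, then 9.55, 9.73, 9.36 and 9.36 (-1.04 ± 0.155, adjusted p = 8.39e-05). Hoxc9, which sets the thoracic identity of motor neurons, read 8.42, 8.39 and 8.30, then 7.42, 7.66, 7.35 and 7.55 (-0.88 ± 0.101, adjusted p = 6.29e-06). In all 3 genes the day 18 pools lay below the day 7 pools without overlap. Hoxc10, one of the paralog 10 genes that set the lumbar region, read 6.08, 6.27 and 6.35, then 4.86, 5.44, 5.11 and 5.07, a 2.16-fold fall (-1.11 ± 0.115, adjusted p = 2.25e-06). Replicate 1 of day 18 was under the background there.

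Hoxc5 read 5.53, 5.81 and 5.11 at day 7 and 4.12, 4.16, 4.23 and 3.93 at day 18. All day 18 pools were under the background and all day 7 pools were above it, so only a lower limit of the fall is given, at least 1.48-fold from the day 7 mean to the background level (adjusted p = 3.94e-06). The measured means were 5.48 and 4.11. At the posterior end of cluster c, Hoxc13, known for hair and nail formation, read 5.43 ± 0.057 at day 7 (mean ± SD, n = 3) and 5.58 ± 0.205 at day 18 (n = 4) and did not pass the test.

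Hoxd10, which patterns lumbar motor neurons, was the third paralog 10 gene to fall, and all 3 that were measured did. It read 7.44, 7.90 and 7.86 at day 7 and 6.79, 7.04, 6.59 and 6.34 at day 18, a 2.06-fold fall (-1.04 ± 0.165, adjusted p = 0.000133), with no overlap. Elsewhere in cluster d, Hoxd3, which shapes the upper neck vertebrae together with Hoxa3, read 6.65, 6.59 and 6.96, then 7.02, 6.98, 6.86 and 7.25. This rise of 0.29 ± 0.103 (adjusted p = 0.0348) came from overlapping pools, and leaving out any 1 of 4 pools (replicate 1 or 2 of day 7, replicate 1 or 4 of day 18) ended the call, at adjusted p from 0.0584 to 0.164. Hoxd4 differed by 0.11 and did not pass.

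In cluster b, the rises were of paralogs 4, 6, 7 and 8. Hoxb7, whose promoter is widely used to drive transgenes in the Wolffian duct, read 8.36, 8.32 and 8.42 at day 7 and 9.14, 9.0, 9.10 and 9.21 at day 18, a 1.67-fold rise (0.74 ± 0.0837, adjusted p = 5.19e-06). Hoxb8, which acts in limb positioning and in microglia, read 8.99, 8.91 and 9.09, then 9.65, 9.47, 9.36 and 9.53 (0.50 ± 0.0814, adjusted p = 0.000166). Every day 18 pool lay above every day 7 pool in both genes. Hoxb4, known for expanding blood stem cells, read 6.58, 6.63 and 6.63, then 7.21, 7.08, 7.04 and 7.00 (0.47 ± 0.11, adjusted p = 0.00318), again with no overlap.

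Hoxb6 read 8.26, 8.01 and 8.05 at day 7 and 8.44, 8.40, 8.47 and 8.31 at day 18. The ages did not overlap, but the rise was small (0.30 ± 0.0972, adjusted p = 0.0232). It was lost without replicate 2 or 3 of day 7 or without replicate 1 or 3 of day 18, at adjusted p from 0.0508 to 0.103. The other cluster b genes above background at both ages, Hoxb2, Hoxb3, Hoxb5 and Hoxb9, differed by -0.01 to 0.17 and did not pass.

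**Figure D2:**
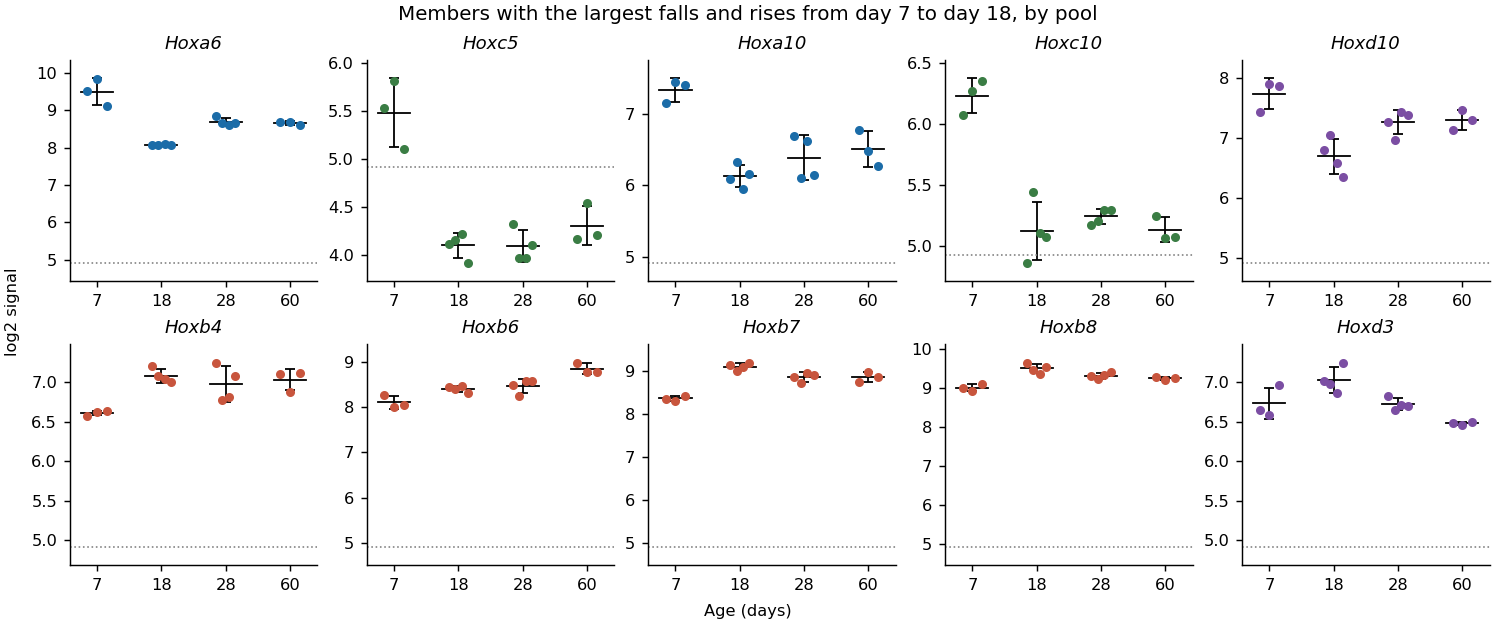
Log2 signal of each pool by age in days for 10 Hox genes (points are pools, horizontal bars the mean, whiskers 1 SD, dotted line the background level of 4.92, colours the Hox cluster; each panel has its own vertical axis). The 5 genes of the upper row drop between day 7 and day 18 without overlap, and of the lower row Hoxb4, Hoxb6, Hoxb7 and Hoxb8 lie higher at day 18 in every pool.

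Genes of cluster b were compared with their paralogs within arrays. For each of 11 pairs of a Hoxb gene and a same-numbered gene of another cluster, both above background at days 7 and 18, the log2 signal of the paralog was subtracted from that of the Hoxb gene in every pool. The change in this difference from day 7 to day 18 was positive in 9 pairs. It was largest for Hoxb6 against Hoxa6 (1.72), Hoxb7 against Hoxa7 (1.70), Hoxb8 against Hoxc8 (1.54) and Hoxb4 against Hoxc4 (1.51). In these 4 pairs and in 4 more (Hoxb4 against Hoxa4 and Hoxd4, Hoxb5 against Hoxa5, Hoxb9 against Hoxc9) the day 18 pools all lay above the day 7 pools. Each of these 8 had p = 0.0571 in a two-sided exact permutation test over the pools (adjusted over the 11 pairs, 0.0786). The two-sided p was the smaller tail doubled, so with 35 labelings 0.0571 was its lowest possible value. This form of the test could not reach the threshold. Hoxb9 against Hoxa9 changed by 0.35 (exact permutation p = 0.114). Hoxb2 against Hoxa2 (-0.15, exact permutation p = 0.114) and Hoxb3 against Hoxd3 (-0.12, exact permutation p = 0.514) differed the other way. A positive change does not by itself mean opposite directions. Hoxb5 (-0.01) and Hoxb9 (0.10) did not pass on their own, and Hoxb4 (0.47) and Hoxd4 (0.11) both differed upwards. The pairs share genes and pools, and the comparison was added after the single-gene results were seen.

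**Figure D3:**
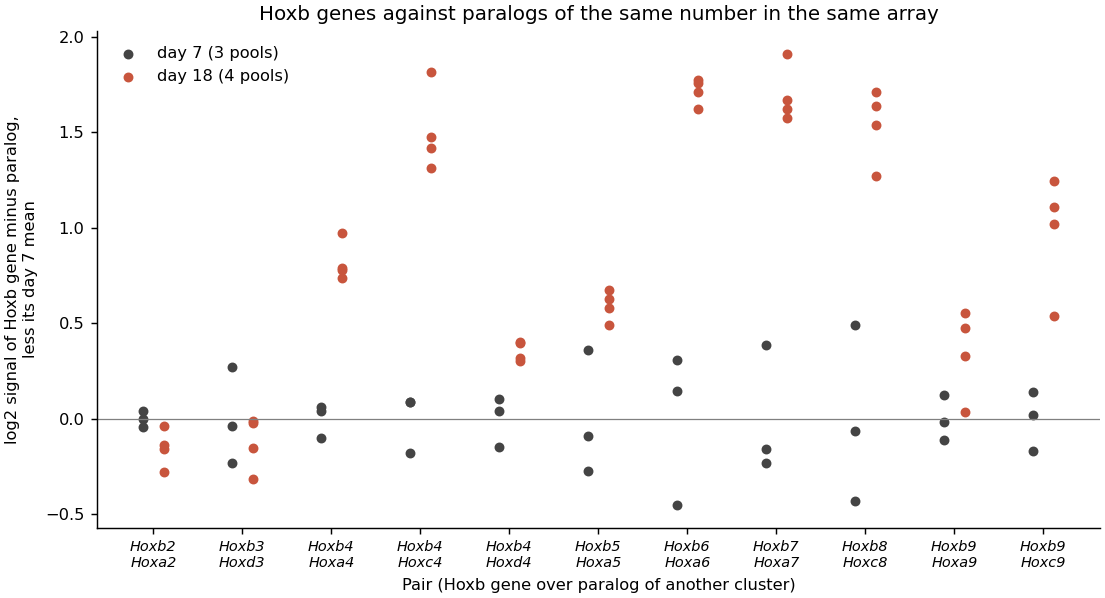
Log2 signal of a Hoxb gene minus that of a paralog with the same number in the same array, less the pair's day 7 mean (vertical axis, log2 units), for 11 pairs at day 7 (grey, 3 pools) and day 18 (red, 4 pools). In 8 pairs all day 18 points lie above all day 7 points, and the mean change is largest for Hoxb6 against Hoxa6 (1.72); Hoxb4 and Hoxb9 enter more than 1 pair.

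By paralog number, 0 of 12 genes of paralogs 9 to 13 rose between day 7 and day 18 (1 did at an unadjusted limma p under 0.05) and 5 fell. Of the 13 genes of paralogs 4 to 8, 4 rose and 7 fell, and of the 6 genes of paralogs 1 to 3, 1 rose and 0 fell (0 also unadjusted). Of all genes 17.4% rose and 20.7% fell, and whether a paralog class differs from these shares was not tested. The 1 rise of paralogs 1 to 3 was the unstable call of Hoxd3. All 4 risers of the middle class were cluster b genes and all 7 that fell were of clusters a and c. The 6 genes under background at every age were Hoxa13, Hoxb13, Hoxc12, Hoxd1, Hoxd12 and Hoxd13, so that Hoxc13 was the one measured gene of paralogs 12 and 13 above it.

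Markers of the tissue's cell types moved over the same step. Of 12 fibroblast and mesenchyme markers 0 rose (0 also at an unadjusted limma p under 0.05) and 10 fell, and their summed signal (log2) went from 15.16 to 15.26 in the day 7 pools to 14.71 to 14.80 in the day 18 pools, with Twist1 under background at both. Of 13 epithelial markers 12 rose and 1 fell, with sums of 12.94 to 13.14 and then 13.69 to 13.79 and 0 under background. Of the other lists, 5 of 8 smooth muscle, 6 of 7 endothelial, 3 of 6 nerve and Schwann cell and 5 of 5 mesothelial markers fell. The rises were of 6 of 8 secretory epithelium, 6 of 9 leukocyte, 5 of 8 adipocyte and 1 of 9 haploid germ cell markers. Cell cycle genes fell in 7 of 9 cases. Their part in the Hox results was not tested.

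Between day 18 and day 28, 7 Hox genes rose and 5 fell, beside 10.5% and 14.3% of all genes (24.7% in either direction). The rises were 4 genes of cluster a, 2 of cluster c and Hoxd10, and the falls were 4 genes of cluster b and Hoxd3. This comparison uses the same day 18 pools as the one before, so a chance deviation of those pools enters both with opposite sign. Medians were 0.26 in cluster a, -0.15 in cluster b, 0.19 in cluster c and 0.05 in cluster d, beside -0.02 over all genes. Pools did not overlap for 10 of the 31 genes and for 26.5% of all genes.

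Among the rises, Hoxa5 had the largest. It read 7.35, 7.29, 7.26 and 7.23 at day 18 and 8.28, 8.03, 7.89 and 8.14 at day 28 (1.74-fold, 0.80 ± 0.0967, adjusted p = 2.51e-05). Hoxa6 went from 8.07, 8.08, 8.08 and 8.08 to 8.84, 8.67, 8.60 and 8.66 (0.61 ± 0.115, adjusted p = 0.00118). The day 28 pools were above the day 18 pools in both. Hoxd10 read 7.27, 6.97, 7.43 and 7.39 at day 28 (0.57 ± 0.153, adjusted p = 0.0127), and its replicate 2 fell within the day 18 range.

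Smaller rises were seen at Hoxc8, which read 9.83, 10.14, 9.85 and 10.12 at day 28 (0.48 ± 0.144, adjusted p = 0.0234), above all day 18 pools. Hoxc9 read 7.77, 7.92, 7.96 and 7.59 at day 28 (0.31 ± 0.0932, adjusted p = 0.0233), with replicate 4 inside the day 18 range. Hoxa2 rose by 0.31 ± 0.0859 (adjusted p = 0.0174) and Hoxa9 by 0.25 ± 0.0747 (adjusted p = 0.0252). Leaving out single pools ended the last 4 calls. For Hoxc8 these were replicate 3 or 4 of day 18 and replicate 2 or 4 of day 28, and for Hoxc9 replicate 1 or 3 of day 18 and replicate 2 or 3 of day 28. For Hoxa9 they were the same 4 pools as for Hoxc9, and for Hoxa2 replicate 2 of day 18 and replicate 1 of day 28, with adjusted p from 0.051 to 0.0727 over these 4 genes.

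The falls were led by Hoxb9, a gene of the thoracic region, which read 7.57, 7.11, 7.27 and 7.57 at day 18 and 6.91, 6.82, 6.91 and 6.75 at day 28 (1.44-fold, -0.53 ± 0.113, adjusted p = 0.00311). Hoxb3, a hindbrain and neck gene, went from 7.99, 8.09, 7.98 and 8.06 to 7.68, 7.46, 7.64 and 7.42 (-0.48 ± 0.0894, adjusted p = 0.00112). Hoxb5, the neighbour of Hoxb4, went from 7.43, 7.28, 7.43 and 7.36 to 7.03, 6.76, 7.17 and 7.08 (-0.36 ± 0.0875, adjusted p = 0.00701). In each the ages did not overlap. Hoxb7 read 8.88, 8.72, 8.97 and 8.93 at day 28, just under its day 18 pools (-0.24 ± 0.0775, adjusted p = 0.0343), and Hoxd3 read 6.83, 6.65, 6.72 and 6.70 (-0.30 ± 0.0953, adjusted p = 0.0306). Both calls were lost when any 1 of 5 pools was left out: replicates 1 and 4 of day 18 and replicate 2 of day 28 for both, with replicate 3 of day 18 and replicate 1 of day 28 for Hoxb7 and replicates 3 and 4 of day 28 for Hoxd3 (adjusted p from 0.0583 to 0.0985).

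The counts of this step rest on few pools. The 7 rises became 4 without replicate 3 of day 18 or without replicate 2 of day 28. The 5 falls became 3 without replicate 1 or 4 of day 18 or without replicate 2 of day 28. Smooth muscle markers rose here in 7 of 8 cases, with summed signals of 12.45 to 12.78 at day 18 and 13.08 to 13.38 at day 28, and 4 of 7 endothelial markers rose (9.56 to 9.66, then 9.85 to 9.96), with 0 of either list under background. Of the epithelial markers 1 rose and 5 fell, and of the fibroblast markers 2 rose and 1 fell. Of the other lists, 7 of 8 secretory epithelium, 4 of 8 adipocyte and 1 of 6 nerve and Schwann cell markers rose. The falls were of 5 of 5 mesothelial and 1 of 9 leukocyte markers and 9 of 9 cell cycle genes. Their part in the Hox results was not tested.

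**Figure D4:**
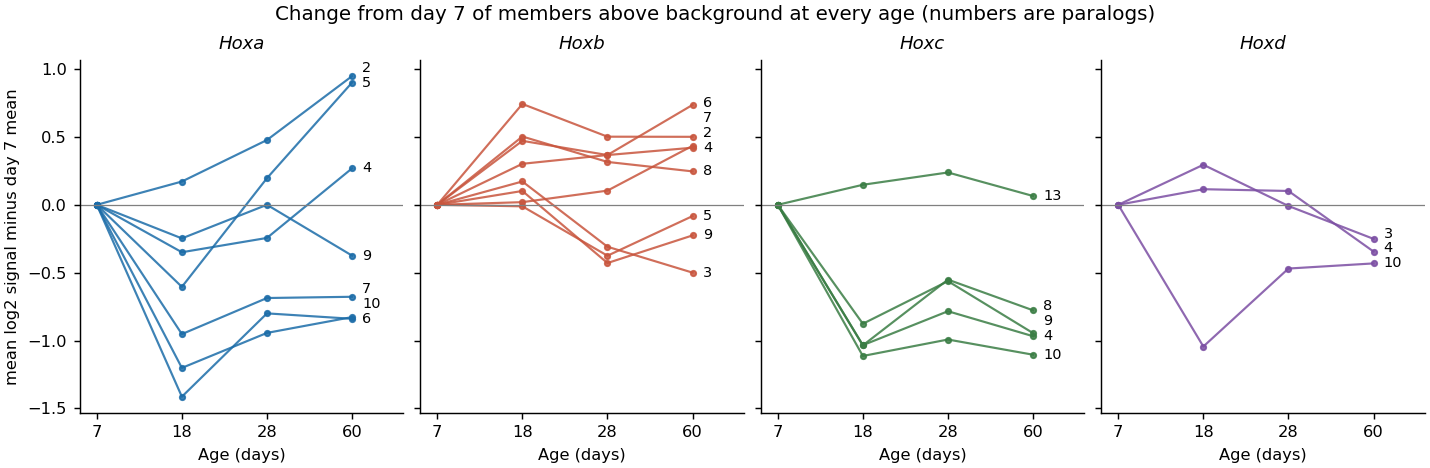
Mean log2 signal minus the gene's own day 7 mean (vertical axis, log2 units) by age in days, for the 23 Hox genes above background at every age, 1 panel per Hox cluster and 1 line per gene, with the paralog number beside each line's end. In cluster a paralogs 2 and 5 end at 0.95 and 0.90 above day 7 while 6, 7 and 10 end at -0.84, -0.68 and -0.83; in cluster c paralogs 4, 8, 9 and 10 stay below their day 7 level at each later age.

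Between day 28 and day 60, 6 Hox genes rose and 6 fell, beside 13.8% and 11.2% of all genes (25% in either direction). The day 28 pools are shared with the step before, so a chance deviation of those pools enters both with opposite sign. Hoxa9 and Hoxc9 rose and then fell over these steps, and Hoxb5 fell and then rose. The rises were of anterior and middle paralogs, 2 to 6, of clusters a and b. Medians were 0.06 in cluster a, 0.03 in cluster b, -0.18 in cluster c and -0.21 in cluster d, beside -0.02 over all genes. The pools of 11 genes did not overlap, beside 31.4% of all genes. Of paralogs 9 to 13, 0 of 12 rose (0 also at an unadjusted limma p under 0.05) and 5 fell. Among these 5 falls, 3 were of genes under the background at every age. The rises of Hoxb2 and Hoxb5 were less stable, as given below. A split by paralog number was not tested.

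Hoxa5 rose from 8.28, 8.03, 7.89 and 8.14 to 8.75, 8.81 and 8.82 (1.63-fold, 0.70 ± 0.104, adjusted p = 0.000209). Hoxa4, its neighbour, went from 5.78, 5.61, 5.88 and 5.67 to 6.12, 6.42 and 6.21 (0.51 ± 0.101, adjusted p = 0.00192). Hoxa2 went from 7.72, 7.49, 7.57 and 7.65 to 7.95, 8.14 and 8.15 (0.47 ± 0.0928, adjusted p = 0.00191). All day 60 pools lay above all day 28 pools in these 3 genes. Hoxb6 went from 8.49, 8.25, 8.57 and 8.57 to 8.98, 8.77 and 8.78 (0.37 ± 0.0972, adjusted p = 0.0121), also with no overlap, and lost its call only without replicate 1 of day 60 among the pools left out (adjusted p = 0.064).

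The 2 other rises were less stable. Hoxb5 rose by 0.29 ± 0.0946 (adjusted p = 0.0354), and leaving out any 1 of the 3 day 60 pools or replicate 1 or 2 of day 28 ended that call (adjusted p from 0.0559 to 0.0912). Hoxb2, a hindbrain gene, read 8.20, 8.18, 8.27 and 8.26 at day 28 and 8.22, 8.85 and 8.61 at day 60 (0.33 ± 0.114, adjusted p = 0.0469). Replicate 1 of day 60 lay within the day 28 range and the other 2 far above it. The difference was 0.50 without that pool and 0.18 without replicate 2 of day 60 (adjusted p = 0.244), and 13 of the 14 left-out pools ended the call.

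Of the falls, 3 were of genes above background. Hoxd4, which marks a boundary in the hindbrain, went from 6.65, 6.69, 6.59 and 6.49 to 6.0, 6.28 and 6.19 (1.36-fold, -0.45 ± 0.0951, adjusted p = 0.00322). Hoxc9 went from 7.77, 7.92, 7.96 and 7.59 to 7.33, 7.45 and 7.50 (-0.38 ± 0.101, adjusted p = 0.0121). Hoxa9 went from 6.39, 6.44, 6.46 and 6.25 to 6.12, 5.90 and 6.02 (-0.37 ± 0.0807, adjusted p = 0.00347). The day 60 pools were lower without overlap in all 3, and the Hoxc9 call was lost without replicate 1 of day 60 (adjusted p = 0.0566). The 6 falls became 3 without replicate 2 of day 28.

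The other 3 falls, of Hoxc12, Hoxb13 and Hoxa13, lay under the background at both ages, so no size is given. Hoxb13 is known from prostate and tail and Hoxa13 from digits and the genital tubercle. Their adjusted p were 0.0212, 0.0247 and 0.0451, and leaving out a single pool could end each call (2 pools for Hoxc12, 3 for Hoxb13, 12 of 14 for Hoxa13). Haploid germ cell markers, whose RNA would come with luminal sperm, rose in 7 of 9 cases over this step, with sums of 8.21 to 8.37 at day 28 and 10.04 to 10.63 at day 60, and the markers under background went from 7 to 1. Fibroblast markers rose in 1 and fell in 5 of 12 cases, with sums of 14.73 to 14.89 and then 14.54 to 14.58. Of the other lists, 3 of 8 secretory epithelium, 3 of 8 adipocyte, 4 of 9 leukocyte and 2 of 5 mesothelial markers rose. So did 1 of 7 endothelial and 2 of 6 nerve and Schwann cell markers (Th, 2.04, and S100b, 1.51). The falls were of 4 of 13 epithelial markers and 9 of 9 cell cycle genes. Their part in the Hox results was not tested.

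**Figure D5:**
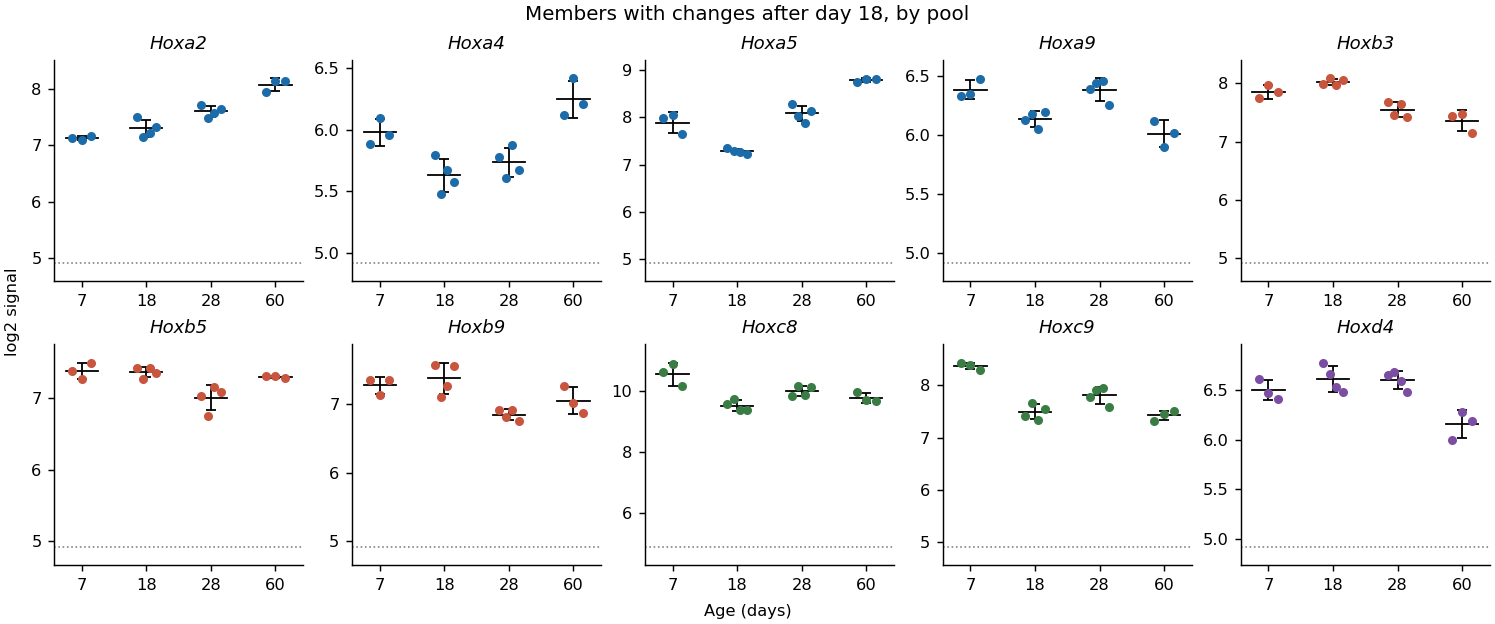
Log2 signal of each pool by age in days for 10 Hox genes with changes after day 18 (points are pools, horizontal bars the mean, whiskers 1 SD, dotted line the background level of 4.92, colours the Hox cluster; each panel has its own vertical axis). Hoxa2 and Hoxa5 are highest at day 60, Hoxb3 and Hoxb9 drop at day 28, and Hoxd4 is lowest at day 60.

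Over the whole span, day 60 against day 7, 7 Hox genes were higher and 12 lower, beside 21.7% and 27.6% of all genes (49.2% in either direction). Pools did not overlap for 23 of the 31 genes and for 57.8% of all genes. These values reuse pools of the comparisons above and are given to show where each gene ended. Cluster a split along its length, since Hoxa2 ended 1.93-fold higher (0.95 ± 0.0992, adjusted p = 1.21e-06) and Hoxa5 1.87-fold higher (0.90 ± 0.112, adjusted p = 7.1e-06), while Hoxa6 (-0.84 ± 0.133, adjusted p = 7.8e-05), Hoxa7 (-0.68), Hoxa9 (-0.37) and Hoxa10 (-0.83) ended lower. Hoxa4 (0.27) did not pass the test. Within cluster a, Hoxa5 and Hoxa6 are next to each other in RefSeq's gene order.

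In cluster c, 5 genes ended lower and 0 higher (0 also at an unadjusted limma p under 0.05). They were Hoxc10 by 2.15-fold (-1.10 ± 0.123, adjusted p = 2.41e-06), Hoxc4 by 1.96-fold (-0.97), Hoxc9 by 1.93-fold (-0.95), Hoxc8 by 1.71-fold (-0.78), and Hoxc5 by at least 1.48-fold because its day 60 mean of 4.31 lay under the background. In cluster b, Hoxb6 ended 1.67-fold higher (0.74 ± 0.104, adjusted p = 2.62e-05), with Hoxb7 (0.50), Hoxb2 (0.43), Hoxb4 (0.42) and Hoxb8 (0.25) also higher and Hoxb3 lower (-0.50 ± 0.103, adjusted p = 0.000831). Without replicate 2 of day 60 the Hoxb2 difference was 0.29. In cluster d, Hoxd4 ended lower (-0.34), as did Hoxd1 at values under background, and Hoxd10 (-0.43) did not pass. Left-out pools ended the calls of Hoxb8 (4 pools), Hoxd4 (2 pools) and Hoxd1 (3 pools).

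The remaining genes did not pass in any of the 4 comparisons. Hoxb1, which sets identity in the hindbrain, had means of 4.88, 5.23, 5.25 and 5.20 at days 7, 18, 28 and 60, under the background at the first age only. Hoxc13 had means from 5.43 to 5.67. Hoxd12 and Hoxd13, which act in digits, were under background at each age, with means from 4.54 to 4.74 and from 3.59 to 3.86.

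Of the TALE cofactors that bind DNA with Hox proteins, 8 of 9 listed genes were measured. From day 7 to day 18, 0 rose (0 also at an unadjusted limma p under 0.05) and 5 fell, beside 17.4% and 20.7% of all genes. Their median was -0.52, beside 0.01 over all genes. Meis1 went from 9.17 ± 0.167 (SD, n = 3) to 7.76 ± 0.182 (n = 4), a change of -1.41 ± 0.101 (adjusted p = 5.19e-08), and Meis2 from 10.41 ± 0.122 to 9.03 ± 0.162 (-1.39 ± 0.0932, adjusted p = 2.81e-08). From day 18 to day 28, 1 rose (Meis1, 0.39) and 1 fell (Pbx2, -0.51), beside 10.5% and 14.3% of all genes. From day 28 to day 60, 0 rose and 1 fell (Pknox1, -0.25), beside 13.8% and 11.2%. At day 60, 0 were higher and 7 lower than at day 7, beside 21.7% and 27.6% of all genes.

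Of the Polycomb genes, 15 of 19 listed were measured. From day 7 to day 18, 4 rose and 6 fell (median -0.20), beside 17.4% and 20.7% of all genes. Ezh2, the histone methyltransferase of dividing cells, fell at each step, with differences of -0.60, -0.56 and -0.71, from a mean of 7.98 at day 7 to 6.12 at day 60. Its counterpart Ezh1 rose by 0.42 to day 18 and by 0.46 from day 28 to day 60. Pcgf2, a subunit of Polycomb repressive complexes, fell by 1.03 ± 0.0993 to day 18 (adjusted p = 1.05e-06), and Cbx7, which binds the Polycomb mark, rose by 0.46. From day 18 to day 28, 1 rose and 5 fell, beside 10.5% and 14.3% of all genes. From day 28 to day 60, 5 rose and 4 fell, beside 13.8% and 11.2%. Cell cycle genes fell over the same steps in 7, 9 and 9 of 9 cases, and their part in these values was not tested.

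Of the Trithorax and activating chromatin genes, 9 of 12 listed were measured. There were 0 rises and 2 falls to day 18, 0 and 5 from day 18 to day 28 and 0 and 1 from day 28 to day 60. At an unadjusted limma p under 0.05 the rises were 0, 0 and 1. Of all genes, 17.4% rose and 20.7% fell in the first step, 10.5% and 14.3% in the second, and 13.8% and 11.2% in the third. Over the whole span 0 of the list were higher and 7 lower, beside 21.7% and 27.6% of all genes. Psip1, a chromatin reader that tethers the MLL complex, was at -1.14 and Wdr5, a core subunit of that complex, at -0.84. Men1, which encodes menin, a partner of MLL, fell by 0.30 to day 18 and by 0.44 to day 28.

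Retinoic acid and Cdx proteins are among the inputs that switch Hox genes on in the embryo, and 15 of 15 such genes were measured. Between day 7 and day 18, 2 rose and 2 fell (median 0.02), beside 17.4% and 20.7% of all genes. Aldh1a1, which makes retinoic acid, rose by 1.10 ± 0.0746 (adjusted p = 3.16e-08) and Aldh1a2, which also makes it, fell by 1.85 ± 0.0864 (adjusted p = 6.95e-10). The receptor gene Rara fell by 0.66 to day 18 and by 0.64 to day 28. From day 18 to day 28, 2 rose and 4 fell, beside 10.5% and 14.3% of all genes. From day 28 to day 60, 1 rose (Cyp26a1, which breaks down retinoic acid, 0.38) and 2 fell, beside 13.8% and 11.2%.

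Genes in or next to the Hox clusters moved in both directions. Of 24 listed, 19 were measured, and 6 rose and 4 fell between day 7 and day 18, 3 and 2 from day 18 to day 28, and 2 and 3 from day 28 to day 60. The shares of all genes called in either direction were 38.1%, 24.7% and 25%. At day 60, 6 genes of the list were higher and 6 lower than at day 7, beside 49.2% of all genes in either direction. Whether the list differs from all genes was not tested. Skap1, an adaptor of T cell signalling next to cluster b, rose by 0.88 and then by 1.30 (adjusted p = 1.79e-05 and 4.25e-07). Cbx5, which encodes a heterochromatin protein and lies near cluster c, fell by 0.85 ± 0.0904 to day 18 (adjusted p = 3.09e-06). Hnrnpa1 fell at each step, with differences of -0.61, -0.48 and -0.64, and Snx10 rose by 1.06 from day 28 to day 60. Hoxa11-as, an antisense transcript named after its values were seen, fell by 0.34 ± 0.104 to day 18 (adjusted p = 0.0182).

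Among the microRNA genes shown above, the mean signals of Mir10a, Mir10b, Mir196a and Mir196b lay under the background at every age, so no size is given for them. Mir196b was added to the list after its values were seen. Mir196c had means of 5.72, 5.64, 5.90 and 5.99 at days 7, 18, 28 and 60 and did not pass in any comparison (adjusted p from 0.141 to 0.694). These clusters read the hairpin or its host transcript rather than the mature strand.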

How the data were processed

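The authors deposited log2 signals for 36685 transcript clusters in 14 arrays. RMA and the Transcriptome Analysis Console are named in the submitters' processing notes; their versions, settings and genome build are not given in the sources used here. RMA summarises probes and normalizes between arrays, so a change common to all genes is not seen.

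Symbols came from the platform annotation (18511 clusters with 1 symbol), and the cluster with the highest mean was kept per gene. Of the Hox genes 28 of 31 matched RefSeq by gene ID; Hoxa2, Hoxa4 and Hoxa10 keep the annotation's name. One mean per age was fitted with limma 3.58.1 in R 4.3.3 (lmFit, eBayes), without a filter on low signal, and p-values were adjusted by Benjamini-Hochberg over 18166 genes. The fit was tested on simulated data. The number of arrays limits the precision; the median SE of a Hox difference from day 7 to day 18 was 0.11.

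The members and lists were chosen with earlier results of these data known. Pool values are given for, in each neighbouring-age comparison, up to 5 called rises and 5 called falls by size, and for further called members. Hoxc12 and Hoxb13, under the background, are left out of this. For the whole span, differences rather than pool values are given. From each list only some of the largest called changes are named. Alternatives were other scalings, filters, moderation, array weights, cluster rules, the replicate block and leaving out each pool. Those of the F test and the paralog pairs were added after the data were seen.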

Additional observations from a re-analysis of the deposited data

Results flagged for a closer look

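One value was far from the others of its age. Hoxa7 read 8.01 in replicate 4 of day 28, while the other day 28 pools read 7.64 to 7.68, and the gap to the nearest of them was 0.888 of the whole range, beyond Dixon's 95% critical value for 4 samples. There were 62 groups of 4 pools examined over the Hox genes, and chance alone flags about 1 in 20. Hoxa7 did not pass the test between day 18 and day 28 (0.27) or between day 28 and day 60 (0.01).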

How the results depend on the processing

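Each of the 60 called differences was recomputed under 22 or 23 alternatives. None changed sign, 40 stayed under the threshold in all, and 20 passed it in at least 1. From day 7 to day 18, 13 of 17 calls held throughout, from day 18 to day 28, 6 of 12, from day 28 to day 60, 5 of 12, and over the whole span, 16 of 19. With every transcript cluster tested, the 7 rises and 5 falls from day 18 to day 28 became 4 and 3, and with genes below the median level of 6.48 left out (19 Hox genes kept) the 6 falls from day 28 to day 60 became 3, fewer genes being tested there. Leaving out 1 pool at a time gave 4 to 6 rises and 11 to 12 falls for the first step, 4 to 8 and 3 to 5 for the second, 4 to 5 and 3 to 6 for the third, 6 to 8 higher and 10 to 13 lower over the whole span, and 24 to 26 genes in the F test. The other alternatives gave counts within 1.5 times of those reported. Between ages, residuals of pools with the same replicate number correlated between -0.143 and 0.0456, and those with different numbers between -0.0644 and 0.12. Such correlations cannot show whether pools with the same number were handled together. With the replicate number as a block the counts were 4 and 11, 6 and 4, 5 and 5, and 7 and 11, and 25 genes in the F test. The block ended the calls of Hoxa9 and Hoxd3 in the first step, Hoxa9 and Hoxb7 in the second, Hoxb2 and Hoxb13 in the third and Hoxd1 over the whole span (adjusted p from 0.0501 to 0.0851). The number of arrays and, for Hoxc5 and the 6 genes under background, signal over background limit what can be seen.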
